A study of Homo sapiens with 4 samples.

Results

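The chaperonin genes examined here were the 8 genes of the cytosolic TRiC/CCT complex (TCP1, CCT2, CCT3, CCT4, CCT5, CCT6A, CCT7 and CCT8) and the 2 genes of the mitochondrial chaperonin, HSPD1 (HSP60) and HSPE1 (HSP10). They were taken by name, with earlier results of these data known but by no threshold on a measured value, and make up 10 of the 63856 genes in the count table. Their RNA was measured by RNA-seq in MCF10A, a human breast epithelial line that does not form tumours, in 2 biological replicates of the wild type and 2 of cells stably overexpressing HSF1 from the lentiviral pLVX vector after puromycin selection (HSF1-pLVX). All libraries came from cells grown in the same medium with horse serum, insulin, hydrocortisone, EGF and cholera toxin, and no heat shock is given in their labels. Empty-vector cells were not analysed here, so HSF1 and the vector with its selection cannot be told apart. Nothing in the labels says whether the replicates were separate cultures, and p-values therefore measure only the spread between these samples.

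Chaperonins are barrel-shaped complexes that enclose an unfolded protein in a central cavity and release it after cycles of ATP hydrolysis. TRiC, built of stacked rings with a different subunit at each position, folds actin and tubulin and many proteins with WD repeats in the cytosol. HSP60 works inside mitochondria with HSP10, which closes the cavity as a lid. HSF1 is the transcription factor of the heat shock response and binds heat shock elements, inverted repeats of the letters GAA, and the genes of both chaperonins are known as heat-responsive.

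HSPD1 and HSPE1 start close to each other on chromosome 2, on opposite strands, so the DNA around their starts is shown first. In GRCh38.p14 coordinates, RefSeq gives starts around which windows were taken that reach from 250 bases before a gene's start to 50 bases after it, for 9 of the 10 genes (12 windows, since some genes have more than 1 start). CCT6A has no entry. The windows were searched for paired heat shock units, GAANNTTC or TTCNNGAA. Each of these reads the same on either strand. Capitals mark the matches. The sequences of HSPD1 and HSPE1 are shown because these genes rose most, CCT8 because it rose most in TRiC, and TCP1 and CCT2 because they did not pass the test. For HSPD1 and CCT2 only the window of the second start is shown, which holds a match, while that of the first start holds none.
HSPD1, second start, chr2:197499791-197500090, minus strand: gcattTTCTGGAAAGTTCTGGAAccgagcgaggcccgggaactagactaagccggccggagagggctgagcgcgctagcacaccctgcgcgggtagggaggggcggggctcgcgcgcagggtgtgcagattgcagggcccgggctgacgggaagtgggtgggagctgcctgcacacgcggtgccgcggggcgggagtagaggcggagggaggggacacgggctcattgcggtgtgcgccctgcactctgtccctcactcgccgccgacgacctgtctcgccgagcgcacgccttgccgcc
HSPE1, chr2:197500129-197500428, plus strand: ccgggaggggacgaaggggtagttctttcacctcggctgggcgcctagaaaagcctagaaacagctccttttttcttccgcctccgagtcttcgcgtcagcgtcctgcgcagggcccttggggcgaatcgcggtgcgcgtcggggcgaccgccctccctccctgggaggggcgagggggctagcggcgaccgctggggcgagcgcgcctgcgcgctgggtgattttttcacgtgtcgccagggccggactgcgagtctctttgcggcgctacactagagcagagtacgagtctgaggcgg
CCT8, chr21:29073599-29073898, minus strand: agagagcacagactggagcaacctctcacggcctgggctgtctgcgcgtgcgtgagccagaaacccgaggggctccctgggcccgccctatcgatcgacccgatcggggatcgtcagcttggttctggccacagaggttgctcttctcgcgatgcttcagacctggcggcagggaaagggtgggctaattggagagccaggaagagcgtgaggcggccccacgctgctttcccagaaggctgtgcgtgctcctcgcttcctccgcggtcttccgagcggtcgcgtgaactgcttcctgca
TCP1, chr6:159789553-159789852, minus strand: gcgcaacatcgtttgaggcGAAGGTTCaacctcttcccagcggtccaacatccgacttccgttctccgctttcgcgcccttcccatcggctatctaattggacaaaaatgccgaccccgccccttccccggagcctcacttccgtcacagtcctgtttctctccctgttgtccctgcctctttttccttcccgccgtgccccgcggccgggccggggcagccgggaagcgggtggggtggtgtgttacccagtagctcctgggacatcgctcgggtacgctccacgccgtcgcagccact
CCT2, second start, chr12:69585639-69585938, plus strand: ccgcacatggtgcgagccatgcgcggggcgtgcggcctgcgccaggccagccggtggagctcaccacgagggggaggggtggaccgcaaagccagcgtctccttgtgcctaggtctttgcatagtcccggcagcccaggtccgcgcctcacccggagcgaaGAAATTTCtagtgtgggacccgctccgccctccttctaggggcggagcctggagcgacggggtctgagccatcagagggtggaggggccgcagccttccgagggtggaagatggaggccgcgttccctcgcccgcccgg
The HSPD1 window held 4 alternating units in a row, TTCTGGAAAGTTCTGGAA, at chr2:197500068-197500085. The near ends of these 18 bases lie 228 bases from this HSPD1 start and 294 bases from the HSPE1 start. They lie between these 2 starts and outside the HSPE1 window, but within the counted spans of both genes, and past the other HSPD1 start in its direction of transcription. A run of 4 such units, each pair of neighbours being one of the pairs searched, was present in 12 of all 35116 windows (0.0342%), and a pair of units in 13.5%. Single pairs were found before the TCP1 start, before the second CCT2 start and after the second CCT4 start. No pair of units lay in the windows of CCT3, CCT5, CCT7, CCT8 or HSPE1, or in those of the first starts of HSPD1, CCT2 and CCT4. The letters CACGTG, present in 7.26% of all windows, occurred in the HSPE1 window 22 bases before the start and in the window of the other HSPD1 start, which overlaps it, so that both windows contain the same site. CCAAT or ATTGG, present in 34.6% of windows, occurred in those of TCP1, CCT3 and CCT8 and of the first CCT2 start, and not in those of HSPD1 or HSPE1. These matches are descriptions of the sequence and do not show binding.

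Libraries held between 18688109 and 24184285 counts. HSF1 itself, on chromosome 8, was at 200.4 and 189 CPM (counts scaled to the library total after TMM normalization) in the wild type replicates and at 982 and 999 in the HSF1-pLVX replicates, a log2 fold change of 2.35 ± 0.10 (standard error, SE; adjusted p = 1.14e-10). The counts do not separate the introduced transcript from the endogenous one. All 8 mammary epithelial markers were detected. Of these, 2 rose (KRT5 2.17-fold and TP63 11.1-fold) and 6 fell. These are 25% and 75%, against 32.7% higher and 33.2% lower of all tested genes. The summed level of the 8 markers was 15704 and 15694 CPM in wild type cells and 6962 and 7408 CPM in HSF1-pLVX cells. The part of this shift in the results below was not tested. Of 8 fibroblast markers, 4 had at most 3 counts in every library and the summed level was 7.88 and 10.9 CPM in wild type cells and 15.0 and 13.9 CPM in HSF1-pLVX cells. DCN, the decorin gene, was the 1 of these called higher, from 0.053 and 0.161 CPM to 3.74 and 4.38 CPM (adjusted p = 1.12e-07). The 7 immune and endothelial markers summed to between 1.04 and 1.86 CPM, with PTPRC at 0. In bulk RNA, a change in the proportion of cells of a type and a change in RNA per cell cannot be told apart.

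The variants were tested by quasi-likelihood in edgeR, and p-values were adjusted over all 15830 tested genes (Benjamini-Hochberg, threshold 0.05). All 10 chaperonin genes passed the filter on low counts, with between 398 and 14845 counts per library, and 8 of them rose in HSF1-pLVX cells: HSPD1, HSPE1, CCT8, CCT3, CCT6A, CCT7, CCT5 and CCT4. None fell. TCP1 and CCT2 did not pass the threshold. Over all tested genes 32.7% were called higher and 33.2% lower (65.9% in either direction), so a change in this comparison is in itself common. Among the 6606 tested genes with a wild type level at or above that of HSPE1, the least abundant of the 10, 27.2% were called higher. Together the 10 genes took up 0.189 and 0.185% of the counts in wild type cells and 0.311 and 0.307% in HSF1-pLVX cells. Taken alone, a gene measured in 2 libraries per variant could not reach an exact permutation p under 0.33, and edgeR shares information on spread among genes.

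HSPD1 (ENSG00000144381.16, chr2:197486581-197516737 of hg38), the HSP60 subunit that forms the barrel, had the largest change of the 10 genes. Its level was 171 and 167 CPM in the wild type replicates and 591 and 615 CPM in the HSF1-pLVX replicates. The groups were far apart, and the replicates of a variant differed by little. The log2 fold change was 1.84 ± 0.09 (SE), a 3.57-fold rise (adjusted p = 6.97e-10). Of all tested genes, 4.86% had a larger log2 fold change.
HSPE1 (ENSG00000115541.10, chr2:197499994-197503457), the lid, was at 23.7 and 21.4 CPM in wild type cells and at 50.8 and 55.1 CPM in HSF1-pLVX cells. Both HSF1-pLVX libraries lay above both wild type libraries. The log2 fold change was 1.23 ± 0.10 (SE), a 2.34-fold rise (adjusted p = 5.06e-08). The rise of HSPD1 exceeded that of HSPE1 by 0.61 on the log2 scale (95% interval from 0.34 to 0.87, from the standard errors of the 2 genes taken as independent). These were the only 2 of the 10 genes with a log2 fold change above 1, against 14.9% of all tested genes called higher by at least 2-fold.
The pair also shifted relative to each other within each library. Per kilobase of counted length, the ratio of HSPD1 to HSPE1 was 3.36 and 3.63 in wild type cells and 5.42 and 5.20 in HSF1-pLVX cells, and the groups did not overlap. The height of this ratio is uncertain, since the genes overlap and reads could be divided between each gene and its pseudogenes. Pseudogenes and read-through genes of HSPE1 held between 5.33 and 7.64% of its counts, and pseudogenes of HSPD1 between 1.26 and 1.84%. Of the 1977 counted bases of HSPE1, 281 are shared with HSPD1 on the opposite strand and 192 with the read-through gene HSPE1-MOB4, and how the counting treated shared or unstranded reads is not given in the sources used here. HSPE1-MOB4 itself held between 0 and 3 counts. MOB4, which lies on the HSPE1 strand, overlaps the HSPD1 span in part and shares no counted bases with it, fell from 17.7 and 23.7 CPM to 11.0 and 9.92 CPM (log2 fold change -0.98, standard error 0.14).

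**Figure D1:**
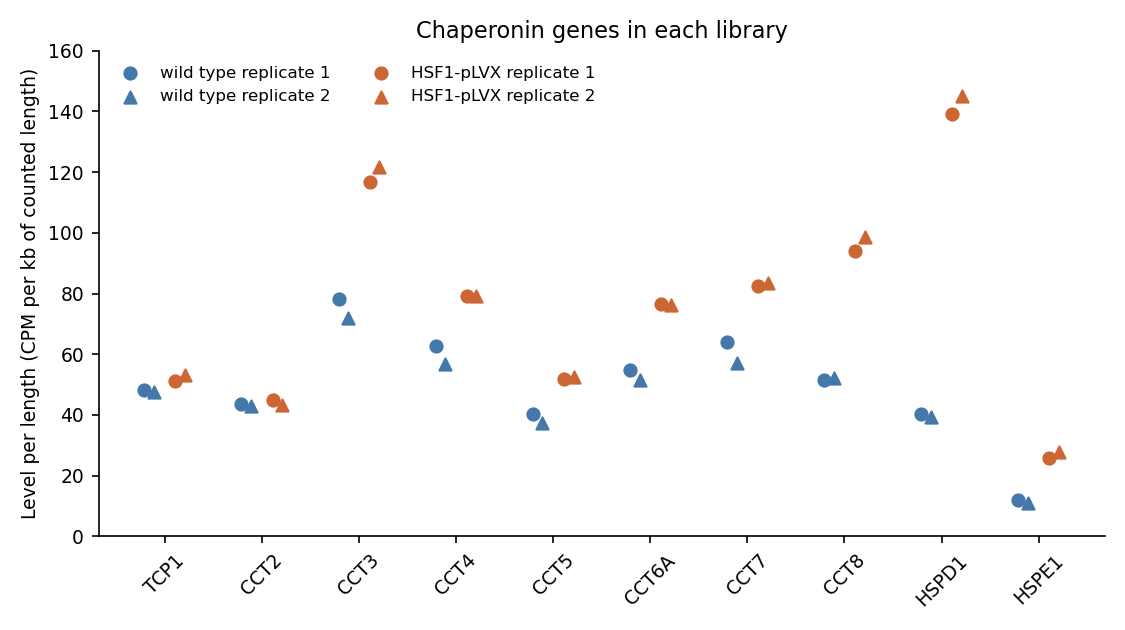
Level of each chaperonin gene in each library, in CPM per kilobase of counted gene length (vertical axis, linear from 0). Circles and triangles are replicates 1 and 2, blue is wild type and orange is HSF1-pLVX. HSPD1 moves from 40.3 and 39.3 to 139 and 145, while the TCP1 and CCT2 points of the 2 variants lie close together.

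In TRiC, CCT8 (the theta subunit, ENSG00000156261.12, chr21:29055805-29073797) rose most. It was at 172 and 174 CPM in wild type cells and at 314 and 329 CPM in HSF1-pLVX cells, giving a log2 fold change of 0.89 ± 0.09 (SE, 1.86-fold, adjusted p = 6.46e-07). CCT3 (gamma, ENSG00000163468.14, chr1:156308968-156367873) was at 314 and 289 CPM in wild type cells and at 469 and 489 CPM in HSF1-pLVX cells. Its log2 fold change was 0.67 ± 0.09 (SE, 1.59-fold, adjusted p = 2.19e-05). In both genes the HSF1-pLVX libraries lay above the wild type libraries by more than the replicates differed. The difference between the log2 fold changes of CCT8 and CCT3, 0.23, had a 95% interval from -0.03 to 0.48.
CCT6A, CCT7, CCT5 and CCT4 rose by similar amounts. CCT6A (zeta, ENSG00000146731.10, chr7:56051630-56063989) went from 213 and 201 CPM to 298 and 298 CPM, a log2 fold change of 0.53 ± 0.09 (SE, adjusted p = 0.000122). CCT7 (eta, ENSG00000135624.15, chr2:73233420-73253021) went from 230 and 206 CPM to 296 and 300.1 CPM, a log2 fold change of 0.45 (standard error 0.09, adjusted p = 0.000608). In these genes, and in CCT5 and CCT4, the wild type replicates differed by more than the HSF1-pLVX replicates, and replicate 1 was the higher of the wild type libraries. CCT5 (epsilon, ENSG00000150753.11, chr5:10249921-10266412) went from 235 and 218 CPM to 302 and 306 CPM, a log2 fold change of 0.43 (standard error 0.09, adjusted p = 0.000789). CCT4 (delta, ENSG00000115484.14, chr2:61868089-61888804) went from 177 and 161 CPM to 224 and 224 CPM, a log2 fold change of 0.41 (standard error 0.09, adjusted p = 0.00109). Neighbours in this order, from CCT3 down to CCT4, differed by between 0.02 and 0.14 on the log2 scale, and each of these intervals included 0.
TCP1 (the alpha subunit, ENSG00000120438.11, chr6:159778498-159789749) was at 238 and 235 CPM in wild type cells and at 252 and 262 CPM in HSF1-pLVX cells. Its groups did not overlap, as was the case in the higher direction for 42.1% of all tested genes (41.0% in the lower direction), but the log2 fold change of 0.12 did not pass the threshold (95% interval from -0.05 to 0.29, adjusted p = 0.241). CCT2 (beta, ENSG00000166226.12, chr12:69585334-69601570) was at 189 and 185 CPM in wild type cells and at 195 and 187 CPM in HSF1-pLVX cells. The groups overlapped, and the log2 fold change was 0.03 (95% interval from -0.14 to 0.20, adjusted p = 0.765). These intervals leave room for a rise of 0.29 for TCP1 and 0.20 for CCT2, and the log2 fold change of CCT4, the smallest among the subunits that rose, exceeded that of TCP1 by 0.29 (95% interval from 0.04 to 0.53) and that of CCT2 by 0.38 (0.13 to 0.62). Over the 8 subunits the median log2 fold change was 0.44, against 0.02 over all tested genes.

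**Figure D2:**
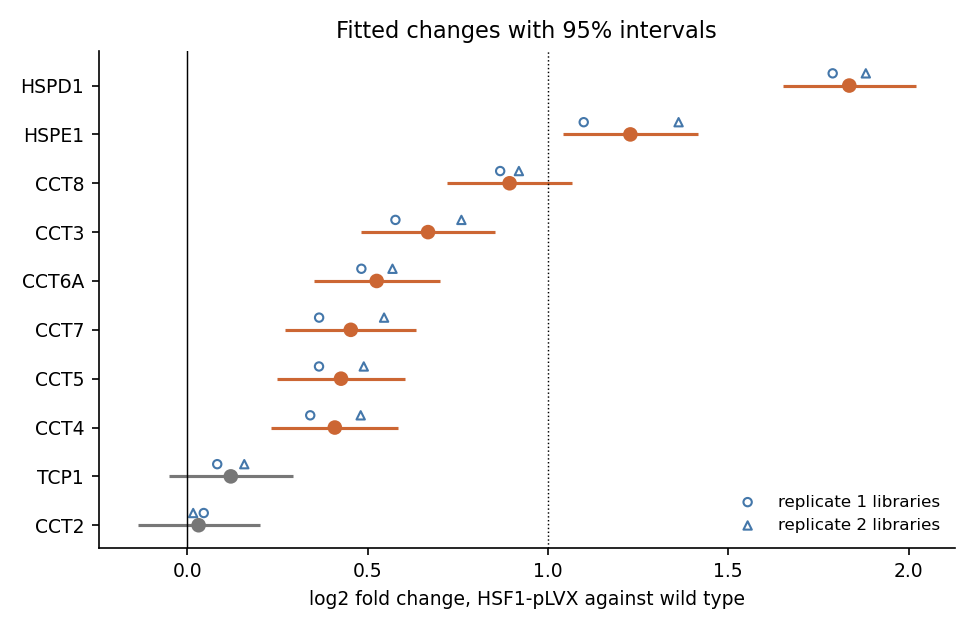
Fitted log2 fold change of each gene in HSF1-pLVX against wild type cells (horizontal axis), with 95% intervals as lines. Filled orange points passed an adjusted p of 0.05 and grey points did not, open blue circles and triangles are the log2 ratios within replicate numbers 1 and 2, and the dotted line marks a 2-fold rise. HSPD1 at 1.84 and HSPE1 at 1.23 lie above 1, and the intervals of TCP1 and CCT2 include 0.

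The deposited normalized values lie on a log2-like scale, judged from the values, and ratios were taken as 2 to the power of their difference. By its methods the study calls a gene changed when its ratio is above 2.0 or below 0.50 in both replicates. By this rule HSPD1 was higher, with ratios of 3.34 and 3.64, and so was HSPE1, with ratios of 2.04 and 2.49. The rule was passed upwards by 5.0% and downwards by 6.42% of all 22321 rows. No TRiC subunit passed it. The ratios of CCT8 were 1.76 and 1.87 and those of CCT3 were 1.44 and 1.68, while those of CCT2 were 0.999 and 1.004.

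Since a TRiC ring holds 1 copy of each subunit, the levels of the 8 transcripts were compared with each other per kilobase of counted length. Their sum was 443 and 417 CPM per kilobase in wild type cells and 597 and 608 in HSF1-pLVX cells, a ratio of means of 1.40. In wild type cells, CCT3 was the most abundant per length, at 75.1 ± 4.44 CPM per kilobase (SD, n = 2), and CCT5 the least, at 38.8 ± 2.01. CCT7 and CCT4 did not differ beyond their replicates, nor did CCT6A and CCT8. In HSF1-pLVX cells CCT3 was again the highest, at 119 ± 3.63, followed by CCT8 at 96.3 ± 3.08, and CCT2 was now the lowest at 44.2 ± 1.25. HSPD1 moved from below 7 of the 8 subunits in wild type cells (39.8 ± 0.675, not separable from CCT5) to above all of them (142 ± 3.99).
The transcripts became less even. The highest subunit was 1.95 and 1.93 times the lowest in wild type cells and 2.59 and 2.81 times in HSF1-pLVX cells, and the coefficient of variation over the 8 subunits went from 22.4 and 20.1% to 32.8 and 34.5%. CCT8 made up 11.6 and 12.5% of the summed level in wild type cells and 15.8 and 16.2% in HSF1-pLVX cells. CCT3 went from 17.6 and 17.2% to 19.5 and 20.0%. In the other direction, CCT2 went from 9.86 and 10.3% to 7.55 and 7.12%, and TCP1 from 10.9 and 11.4% to 8.55 and 8.74%. Shares of the other 4 subunits moved by between -0.71 and 0.34 percentage points, and those of CCT7 overlapped between the variants. With counts not scaled by length the same subunits gained and lost, by 3.47 points for CCT8, 2.64 for CCT3, -2.84 for CCT2 and -2.94 for TCP1. No p-value is given for these shares. The counted length joins all annotated exons of a gene, so the order of levels depends on the annotation. The length does not enter the change of a gene between variants, but which reads are counted still depends on the annotation.

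**Figure D3:**
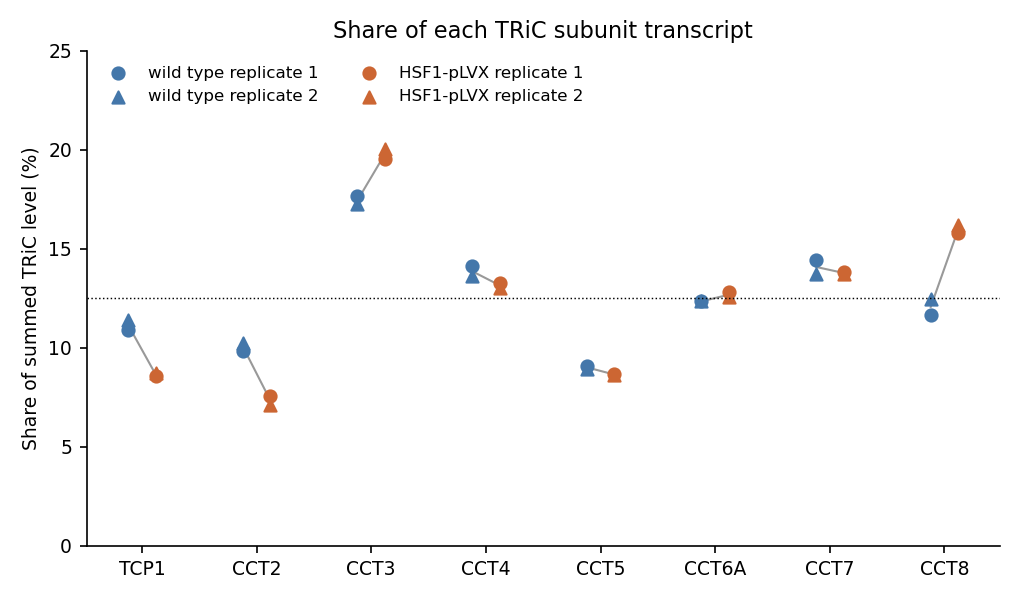
Share of each TRiC subunit in the summed length-scaled level of the 8 subunits (vertical axis, percent), with 1 point per library, blue for wild type and orange for HSF1-pLVX, and grey lines joining the means. The dotted line marks an equal share of 12.5%. CCT8 and CCT3 gain, TCP1 and CCT2 lose, and the other 4 subunits stay within 1 point.

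Several of these genes have processed copies elsewhere in the genome whose sequence is close to the parent gene, and reads could be divided between them. By symbol, the table holds 59 pseudogenes and read-through genes of the 10 genes, of which 27 had no counts in any library and 7 passed the filter. HSPD1P1 had 46 and 45 counts in wild type libraries and 175 and 150 in HSF1-pLVX libraries (log2 fold change 1.57, adjusted p = 6.78e-06), a direction it shared with HSPD1. CCT6P1 rose by 0.88 on the log2 scale and HSPE1P2 by 1.19, with HSPE1P5 at 0.88, while CCT8P1 had a value of 0.18 that did not pass the threshold (adjusted p = 0.54). All copies of HSPD1 together had between 1.26 and 1.84% of its counts, those of CCT6A between 1.90 and 2.49% and those of HSPE1 between 5.33 and 7.64%. Adding the copies to the parent changed no log2 fold change by more than 0.03, and HSPE1 then stood at 1.20. These sums hold only reads that were counted. How reads matching several places were treated is not given in the sources used here, so the sums cannot show the effect of reads left out.

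Genes that share a starting region with a chaperonin gene did not all move with it. PSPH, the last enzyme of serine synthesis, starts on the opposite strand 26 bases from CCT6A and rose from 8.20 and 8.61 CPM to 22.6 and 25.1 CPM (adjusted p = 6.47e-08). MRPL18, a mitochondrial ribosomal protein, lies 63 bases from TCP1 and rose by 0.22 on the log2 scale (adjusted p = 0.0300). PRADC1, 182 bases from CCT7, fell from 7.62 and 7.21 CPM to 3.66 and 4.38 CPM, opposite to CCT7. COMMD1 shares 81 counted bases with CCT4 and fell by 0.49. At the other end of TCP1 lies a gene that shares its last counted bases. This is ACAT2, the cytosolic acetyl-CoA acetyltransferase, which shares 397 bases with TCP1 on the opposite strand and fell from 69.9 and 72.4 CPM to 34.2 and 31.5 CPM. Without strand, reads of these shared bases cannot be told apart, and the counting of TCP1 carries that limit.

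The genes around the chaperonins were taken from lists made by function. The list of TRiC partners also held related genes, among them NOP56. Of its 14 genes, 13 were tested, 5 rose and 5 fell (38.5% each, near the 32.7% higher and 33.2% lower of all tested genes). The list's median log2 fold change was 0.09. NOP56, a core protein of box C/D snoRNPs and the most abundant of the list by the mean of all libraries, though below PFDN1 and PFDN5 in wild type cells, rose 2.19-fold (80.5 and 75.7 CPM to 163 and 178 CPM, adjusted p = 6.19e-08). PDRG1, a prefoldin-like protein, fell by 0.92, and TXNDC9, a phosducin-like regulator of TRiC, fell by 0.68. Prefoldin, which hands actin and tubulin chains to TRiC, has 6 subunits, of which 5 were tested. PFDN1 fell by 0.78, from 113 and 107 CPM to 61.9 and 66.0 CPM, and PFDN2 and VBP1 did not pass the threshold. PFDN5 rose by 0.65 and PFDN4 by 0.40 (both named after their values were seen). By DESeq2 the rise of PFDN4 did not pass the threshold (adjusted p = 0.133). The list's 5 rises were 2 without wild type replicate 1, 3 without wild type replicate 2 and 2 without HSF1-pLVX replicate 2. NOP56 and PFDN5 kept adjusted p-values of at most 0.0135 in these fits.
Among 5 chaperonin-like paralogs, 4 were tested and 1 rose (25%, against 32.7% of all tested genes). MKKS, a chaperonin-like protein of the BBS group, rose by 0.71 (20.3 and 20.2 CPM to 32.0 and 34.5 CPM, adjusted p = 1.46e-05). CCT6B, the testis-enriched relative of CCT6A, was at between 0.799 and 1.79 CPM, with a log2 fold change of 0.74 that did not pass the threshold (adjusted p = 0.053). It passed without wild type replicate 2 (adjusted p = 0.0312). BBS10 and BBS12 had log2 fold changes of -0.24 and -0.29 and did not pass the threshold.
Of 20 listed substrates of TRiC, 19 were tested, 5 rose and 8 fell (26.3% and 42.1%, against 32.7% and 33.2% of all tested genes), with a median log2 fold change of -0.12. ACTB, the beta-actin gene and the most abundant of the list, fell from 8869 and 8794 CPM to 4514 and 4488 CPM (log2 fold change -0.97, standard error 0.12). TUBB4B, a beta-tubulin, fell by 1.35, while the mitotic genes PLK1 and CDC20 rose by 1.92 and 1.64 and VHL, the tumour suppressor that TRiC folds, rose by 1.09. TUBB is listed at 0 in every library, as are PFDN6, HSPA1A and HSPA1B, although every cell uses beta-tubulin and prefoldin, so a 0 here is no sign of absence.
Of 7 tubulin folding cofactors, 6 were matched and tested, 2 rose and 3 fell (33.3% and 50%, against 32.7% and 33.2% of all tested genes). ARL2 rose by 1.08 and TBCB, TBCEL and TBCC fell by 0.91, 0.48 and 0.43. The fall of TBCC was not kept without HSF1-pLVX replicate 2 (adjusted p = 0.0569). TBCA, the most abundant by the mean of all libraries but below TBCB in wild type cells, rose by 0.30 (adjusted p = 0.00785), a call that was not kept without wild type replicate 1 or without HSF1-pLVX replicate 2 (adjusted p = 0.0668 and 0.115).

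The mitochondrial chaperones and proteases, which work beside HSP60, included 10 genes that rose and 2 that fell among 18 tested. Their median log2 fold change was 0.55, with 55.6% of them higher and 11.1% lower, against 32.7% and 33.2% of all tested genes. TRAP1, the mitochondrial HSP90, rose from 32.0 and 27.8 CPM to 95.4 and 106 CPM (log2 fold change 1.76, adjusted p = 1.51e-09). LONP1, the main matrix protease, rose by 1.40, and HSPA9, the mitochondrial HSP70 that passes imported chains to HSP60 and the most abundant of the list, rose by 1.06 (341 and 317 CPM to 668 and 702 CPM). OMA1, an inner membrane protease, rose by 0.88. SPG7 fell by 0.72 and CLPP by 0.27 (both named after their values were seen). The fall of CLPP was not kept without wild type replicate 1, HSF1-pLVX replicate 1 or HSF1-pLVX replicate 2, with adjusted p-values from 0.0755 to 0.0928. GRPEL1, an exchange factor of HSPA9, had a log2 fold change of 0.06 and did not pass the threshold. GRPEL2, the paralog of GRPEL1, rose by 0.58, from 20.9 and 26.1 CPM to 35.9 and 34.5 CPM (adjusted p = 0.0003). Both were named after their values were seen.
For comparison, 12 of 14 cytosolic heat shock genes were tested, 5 rose and 2 fell (41.7% and 16.7%, against 32.7% and 33.2% of all tested genes). None of the tested ones passed 2-fold, against 14.9% of all tested genes called higher by that much. HSPA1A and HSPA1B, listed at 0 in every library, were not tested and are not part of these values. HSPH1, an HSP110, rose by 0.75, HSPB1 (HSP27) by 0.71 and HSP90AB1 by 0.70, whereas HSP90AA1, the heat-inducible HSP90, fell by 0.65 and DNAJB1 by 0.34 (the latter named after its values were seen). Without HSF1-pLVX replicate 2 the fall of DNAJB1 did not pass the threshold (adjusted p = 0.0734). HSPA8, the constitutive HSP70 and the most abundant of the list by the mean of all libraries, though below HSP90AB1 in HSF1-pLVX cells, had a log2 fold change of -0.13 that did not pass it either. The median of the 12 genes was 0.07, against 1.53 for HSPD1 and HSPE1 and 0.44 for the 8 TRiC subunits.

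**Figure D4:**
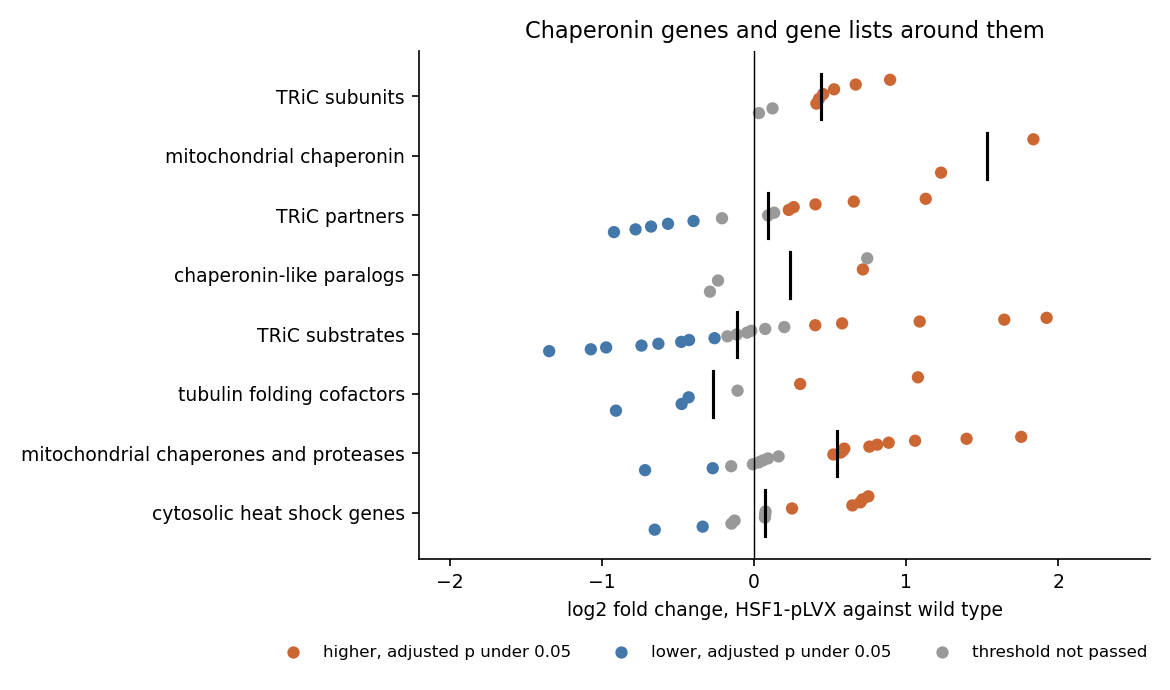
Log2 fold change in HSF1-pLVX against wild type cells (horizontal axis) of every tested gene of each list (rows). Orange points were called higher, blue points lower and grey points did not pass an adjusted p of 0.05, and black bars are list medians. The 2 mitochondrial chaperonin genes lie at 1.23 and 1.84, and the partners and substrates of TRiC spread to both sides of 0.

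The genes whose pattern over the 4 libraries was most like that of TRiC were found by the root mean square distance of centred log2 levels, among 9662 other genes above 8 CPM. For the mean of the 8 subunits they were SPG21, RNF220, ADARB1, LFNG and KTN1, at distances from 0.0045 to 0.012. For HSPD1 they were FRMD8, ZNF507, LRIG3, BLMH and CD82, at distances from 0.022 to 0.027. With 2 variants this likeness reflects mostly the size of the difference, and CD82, for example, went from 123 and 118 CPM to 440 and 449 CPM.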

How the data were processed

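Total RNA depleted of ribosomal RNA was sequenced as paired-end reads from 2 wild type and 2 HSF1-pLVX libraries of MCF10A cells. The authors aligned reads to hg38 with HISAT2 2.0.5, processed them with SAMtools 1.13 and deposited raw counts per gene from featureCounts 1.6.5. Strand, overlap and multimapping settings are not given in the sources used here, and reads shared by genes could move between them. A second deposited table holds values normalized with DESeq2 1.32.0 by the authors, on a log2-like scale, and was used for the study's ratio rule.

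Genes were tested with the edgeR 4.0.16 quasi-likelihood test in R 4.3.3 (TMM, filterByExpr, group as the only term, Benjamini-Hochberg over 15830 genes). The test was checked on simulated data with few changed genes, as many up as down, and the same dispersion for all genes. That check does not cover a comparison in which 65.9% of genes were called. Intervals are the estimate ± 1.96 standard errors. Genes within a list were named as the 4 with the largest absolute log2 fold change past the threshold plus the most abundant. Other genes named within a list, such as BBS10, BBS12, CCT6B, PFDN2 and VBP1, were added outside this rule with their values seen. The genes and lists were chosen with earlier results of these data known. Replicates of a variant differed by more than counting noise (chi-square per degree of freedom 4.39 and 5.30), so none was counted as a duplicate. Alternatives were other scalings, no low-count filter, DESeq2 1.42.0, a replicate block, each library left out, the deposited values, no length scaling and summed pseudogenes.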

Additional observations from a re-analysis of the deposited data

How the results depend on the processing

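The 8 calls among the chaperonin genes were 2 when a log2 fold change beyond 1 was also required and 2 by the study's ratio rule. Of 70 single-gene values from tested alternatives that kept all libraries, 70 kept direction and side of the threshold. With a library left out, 39 of 40 did so. The exception was CCT2, at -0.00029 without wild type replicate 2 and at up to 0.0699 with other libraries left out. The deposited values, which were not tested, are not among the 70. In them CCT2 differed by 0.0027, against a fitted log2 fold change of 0.031. TRiC partners that rose were 3 without the low-count filter and 2 by DESeq2, against 5, and paralogs that rose were 2 with library size only and 2 with the crossed pairing, against 1. With single libraries left out, counts ranged from 2 to 4 for partners that rose, 1 to 2 for paralogs and 1 to 2 for tubulin cofactors that rose, and 1 to 2 for mitochondrial and 1 to 2 for cytosolic genes that fell. The cause was not tested. These fits assume that the lone library varies like the other group, and the highest adjusted p of CCT4 in them was 0.0491. The labels do not say what a replicate number marks. Same-numbered deviations correlated at 0.00014 over tested genes and -0.113 over 9672 genes above 8 CPM. With 1 such deviation per variant, this cannot show whether libraries of the same number were handled together. With the replicate block 5138 genes rose and 5171 fell, against 5175 and 5253, and 8 chaperonin genes rose with a TRiC median of 0.44. The crossed pairing, added after seeing the data, gave 5429 and 5487. The lowest count of a chaperonin gene, 398, has a counting error of 5.01%.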
